A study of Mus musculus with 6 samples.

Results

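The KIT, PI3K and FOXO3 follicle activation genes are 9 of the 47122 gene models in the deposited table, taken by their symbols: Kit and Kitl, Pik3ca, Pdpk1 and Akt1, Foxo3, and Tsc1, Tsc2 and Mtor. They were measured by RNA sequencing of total RNA from mouse ovaries at 1 day post partum (dpp), in 3 samples labelled BCAS2 cKO (conditional knockout) and in 3 labelled wild type (WT). Bcas2 encodes a pre-mRNA splicing factor, and the design text places its loss in the oocytes. Tissue and title labels say ovary, while a description label mentions granulosa cells, and the samples are read here as whole ovary. The labels give no strain, no Cre driver and no deleted exon, and do not say whether the WT ovaries carried a floxed allele or a Cre transgene. They also do not say whether a sample is 1 animal or a pool, so the tests see sample-to-sample spread that could be partly technical.

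In the mammalian ovary, primordial follicles lie dormant until single oocytes are recruited to grow. KIT, a receptor tyrosine kinase on the oocyte, is bound by KIT ligand from the surrounding pregranulosa cells and activates phosphoinositide 3-kinase (PI3K), which through PDK1 and AKT keeps the transcription factor FOXO3 out of the nucleus and so releases the block on growth. The TSC1/TSC2 complex holds back the kinase mTOR, a parallel input to the same step, and loss of Foxo3, Tsc1 or Tsc2 in mouse oocytes is known to activate the whole follicle pool early. This control acts largely through phosphorylation and the position of FOXO3 in the cell, which transcript levels do not measure.

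Levels of all 9 genes overlapped between Bcas2 cKO and WT ovaries, and 0 of the 9 passed the test between groups. Length-normalised abundances (FPKM, fragments per kilobase of gene scaled to library size) were compared as log2(FPKM + 1) with limma, with Benjamini-Hochberg adjustment over the 14589 genes that had at least 1 FPKM in at least 3 of the 6 samples, among them all 9. The adjusted p of the 9 genes ran from 0.955 to 0.986, and 0 of the 9 had an unadjusted p under 0.05. In the same limma fit 0 of the 14589 genes (0%) passed the adjusted threshold of 0.05 and 3.04% had an unadjusted p under 0.05. Limma-voom on reads recovered from the values also called 0 genes, with 381 under an unadjusted 0.05 and none of the 9 among them. The groups overlapped for 9 of the 9, while over all tested genes they did not overlap for 7.88%.

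The libraries held 16800421 to 18382568 recovered reads in Bcas2 cKO and 17252045 to 19565275 in WT, and each of the 9 genes rested on 1321 to 19417 reads in a library. Bcas2 was at 18.9, 21.9 and 18.3 FPKM in the cKO ovaries, against 54.5, 37.5 and 35.7 FPKM in the WT ovaries, without overlap, and its fold change was −1.05 in log2 (95% interval −1.46 to −0.64). As a single check of the labels limma gave it an unadjusted p of 0.000502 and an adjusted p of 0.955, and an exact two-sided permutation test gave p = 0.1, the smallest that 3 against 3 allows. Oocyte markers (10 of 10 tested) summed to 1018 to 1345 FPKM in cKO and 883 to 1362 FPKM in WT, and pregranulosa markers (10 of 10) to 536 to 624 FPKM and 487 to 641 FPKM, so RNA of both cell types that carry the pathway was present in every library. WT replicate 1 stood apart: its endothelial markers (7 of 7 tested) summed to 143.8 FPKM, against 32.4 to 45.5 FPKM in the 3 cKO libraries and 30.9 and 45.4 FPKM in the other 2 WT libraries, and its stroma markers (7 of 7) to 853 FPKM, against 247 to 319 FPKM and 259 and 401 FPKM. In cKO replicate 2 erythroid markers (6 of 6 tested) summed to 6118 FPKM, against 311 and 625 FPKM in the other 2 cKO libraries and 203 to 602 FPKM in WT. In whole ovaries, fewer cells of a type and less RNA per cell cannot be told apart.

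**Figure D1:**
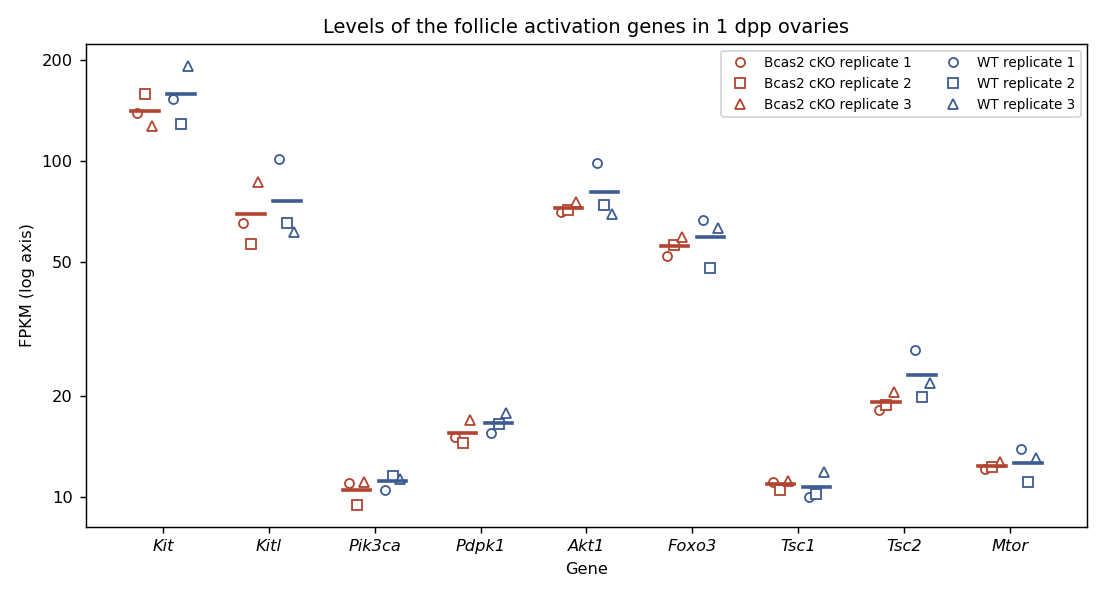
FPKM (log axis) of the 9 genes in each library, Bcas2 cKO in red left of WT in blue, with marker shapes for replicates and a line at each group mean. The groups overlap for every gene, and on the log axis Kitl has the widest range, from 56.5 to 101.4 FPKM.

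By level per length, Kit stood first of the 9 with a mean of 149.5 FPKM over the 6 libraries, above 98.2% of the tested genes. Akt1 (76.7 FPKM), Kitl (72.8 FPKM) and Foxo3 (57.8 FPKM) followed. The range of Kitl overlapped those of both its neighbours, with Akt1 above Kitl in 4 of 6 libraries and Kitl above Foxo3 in 5 of 6, while Akt1 and Foxo3 did not overlap. Tsc2 (21.1 FPKM), Pdpk1 (16.1 FPKM) and Mtor (12.6 FPKM) came next, in that order in 6 of 6 libraries with no overlap between these neighbours. The range of Mtor overlapped that of Pik3ca, with Mtor above Pik3ca in 5 of 6 libraries. Pik3ca and Tsc1 closed the order at 10.9 and 10.8 FPKM and did not differ beyond their spread, with Pik3ca above Tsc1 in 0 of 3 cKO and 2 of 3 WT libraries. The order of the means ran over a wide range of levels, but even the lowest 2 genes were above 56.5% of the tested genes.

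The start regions of the receptor, its ligand and the transcription factor are shown because these 3 genes are described library by library below. The windows are the 250 bases before the RefSeq start of each gene (GRCm38.p6, 5′ to 3′ on the gene's strand), at chr5:75574737-75574986 (plus strand) for Kit, chr10:100015571-100015820 (plus strand) for Kitl and chr10:42276696-42276945 (minus strand) for Foxo3. Capitals mark GGGCGG on either strand and TATAAA on the gene's strand, motifs chosen after the sequences were seen.
Kit: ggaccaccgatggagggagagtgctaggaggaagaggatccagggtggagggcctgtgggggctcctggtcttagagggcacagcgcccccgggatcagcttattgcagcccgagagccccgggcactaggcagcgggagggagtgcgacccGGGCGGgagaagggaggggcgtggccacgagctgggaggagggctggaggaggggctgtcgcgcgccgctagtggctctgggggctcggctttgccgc
Kitl: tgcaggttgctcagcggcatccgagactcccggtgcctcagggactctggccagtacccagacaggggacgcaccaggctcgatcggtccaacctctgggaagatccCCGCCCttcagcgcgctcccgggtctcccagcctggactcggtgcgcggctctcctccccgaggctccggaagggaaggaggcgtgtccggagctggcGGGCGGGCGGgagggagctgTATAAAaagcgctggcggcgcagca
Foxo3: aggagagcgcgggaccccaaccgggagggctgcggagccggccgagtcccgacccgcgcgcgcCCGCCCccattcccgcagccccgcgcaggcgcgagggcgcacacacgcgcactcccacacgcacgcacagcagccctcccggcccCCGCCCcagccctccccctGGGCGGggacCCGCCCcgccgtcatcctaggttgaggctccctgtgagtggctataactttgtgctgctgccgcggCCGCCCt
The Kit window held GGGCGG 1 time, the Kitl window 3 times, of which a pair overlaps, and the Foxo3 window 5 times, while 32.7% of all 32851 windows of this length held it. Only the Kitl window of these 3 held TATAAA, starting 25 bases before the start, as did 7.59% of all windows. GC content was 70.8%, 69.2% and 76.4% for Kit, Kitl and Foxo3, against a median of 52.4% over all windows. The helix-loop-helix motif CANNTG was not in these 3 windows on either strand, and 66.2% of all windows held it. The NOBOX motif TAATTG was not in them either, against 7.17% of all windows. The FOXO motif GTAAACA was likewise not in them, against 3.17% of all windows. A match or its absence in so short a window is a description of the letters.

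Kit, the oocyte receptor of the pathway, lies on chromosome 5 from 75735647 to 75817382 on the plus strand (GRCm39, as are the gene coordinates that follow; gene identifier 16590). Its level was 138.7, 157.8 and 127.2 FPKM in the cKO ovaries, against 153.0, 128.8 and 191.8 FPKM in the WT ovaries. WT replicate 3 was the highest and cKO replicate 3 the lowest, and WT replicates 1 and 2 lay within the range of cKO. The means were 141.2 ± 15.4 FPKM in cKO and 157.9 ± 31.8 FPKM in WT (SD, n = 3 each), with a log2 fold change of −0.15 (95% interval −0.54 to 0.25, SE 0.17, limma adjusted p = 0.955). Without WT replicate 3 the log2 fold change was 0.0028.

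Kitl encodes KIT ligand, made by pregranulosa cells, and lies on chromosome 10 from 99851477 to 99936278 on the plus strand (gene identifier 17311). It was at 65.3, 56.5 and 86.6 FPKM in cKO, against 101.4, 65.6 and 61.4 FPKM in WT. Relative to its mean it varied most among the 9 genes, with WT replicate 1 and cKO replicate 3 high and cKO replicate 2 low. The means were 69.5 ± 15.5 FPKM in cKO and 76.1 ± 21.98 FPKM in WT (SD, n = 3 each), with a log2 fold change of −0.12 (95% interval −0.66 to 0.43, SE 0.23, limma adjusted p = 0.972). Leaving out WT replicate 1 gave 0.11 and leaving out cKO replicate 2 gave 0.02, so its direction rested on single libraries. WT replicate 1, the highest in Kitl, was also the highest in endothelial and stroma markers, and the part of those cells in the Kitl level was not tested.

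Pik3ca encodes the alpha catalytic subunit of PI3K, on chromosome 3 from 32451203 to 32520256 on the plus strand (gene identifier 18706). It was at 11.0, 9.50 and 11.1 FPKM in cKO, against 10.5, 11.6 and 11.3 FPKM in WT. The values were close to each other in all libraries, with cKO replicate 2 the lowest. Its log2 fold change was −0.08 (95% interval −0.32 to 0.17, SE 0.10, limma adjusted p = 0.955), and −0.0094 without cKO replicate 2.

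Pdpk1 encodes PDK1, the kinase that phosphorylates AKT in its activation loop, on chromosome 17 from 24292654 to 24370957 on the minus strand (gene identifier 18607). It was at 15.1, 14.5 and 16.95 FPKM in cKO, against 15.6, 16.6 and 17.9 FPKM in WT. The groups overlapped through cKO replicate 3, and cKO replicate 2 was the lowest of the 6. Its log2 fold change was −0.10 (95% interval −0.34 to 0.14, SE 0.10, limma adjusted p = 0.955). It was −0.05 without WT replicate 3 or without cKO replicate 2, and −0.16 without cKO replicate 3.

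Akt1, which encodes an AKT kinase, lies on chromosome 12 from 112620255 to 112641318 on the minus strand (gene identifier 11651). It was at 70.5, 71.6 and 75.5 FPKM in cKO, against 98.8, 74.2 and 69.6 FPKM in WT. A single library, WT replicate 1, stood above the other 5, which lay within a narrow range. The log2 fold change was −0.14 (95% interval −0.48 to 0.20, SE 0.14, limma adjusted p = 0.955), and 0.01 without WT replicate 1.

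Foxo3, the transcription factor that holds primordial oocytes dormant, lies on chromosome 10 from 42057841 to 42152691 on the minus strand (gene identifier 56484). It was at 52.3, 56.4 and 59.4 FPKM in cKO, against 66.9, 48.2 and 63.4 FPKM in WT. The 3 cKO libraries lay between the WT values, with WT replicate 2 below and WT replicates 1 and 3 above all of them. The means were 56.0 ± 3.54 FPKM in cKO and 59.5 ± 9.95 FPKM in WT (SD, n = 3 each), with a log2 fold change of −0.07 (95% interval −0.40 to 0.26, SE 0.14, limma adjusted p = 0.969). The fold change was 0.02 without WT replicate 1.

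Tsc1, which encodes hamartin, the stabilising partner in the TSC complex, lies on chromosome 2 from 28531005 to 28581184 on the plus strand (gene identifier 64930). It was at 11.1, 10.5 and 11.2 FPKM in cKO, against 10.02, 10.2 and 11.9 FPKM in WT. Of the 9 genes it alone had a higher mean in cKO, by a log2 fold change of 0.03 (95% interval −0.21 to 0.27, SE 0.10, limma adjusted p = 0.979), and that sign turned to −0.04 after rescaling to TPM, which gives every library the same total and to −0.0083 without WT replicate 1.

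Tsc2 encodes tuberin, the GTPase-activating subunit of the TSC complex, on chromosome 17 from 24814790 to 24851607 on the minus strand (gene identifier 22084). It was at 18.1, 18.9 and 20.6 FPKM in cKO, against 27.4, 19.9 and 21.9 FPKM in WT. Its groups overlapped through a single pair of libraries, cKO replicate 3 and WT replicate 2, and it had the largest difference of the 9. The means were 19.2 ± 1.25 FPKM in cKO and 23.1 ± 3.91 FPKM in WT (SD, n = 3 each), with a log2 fold change of −0.24 (95% interval −0.56 to 0.07, SE 0.13, limma adjusted p = 0.955). Without WT replicate 1 it was −0.12, and without WT replicate 2 it was −0.34, with an unadjusted limma p under 0.05 and an adjusted p of 0.955. The last 699 bases of Tsc2 overlap Pkd1 on the opposite strand, which reached 14.8 FPKM, and whether counting used strand is not given, so reads could be shared there.

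Mtor encodes the kinase of both mTOR complexes, on chromosome 4 from 148533039 to 148642142 on the plus strand (gene identifier 56717). It was at 12.2, 12.4 and 12.8 FPKM in cKO, against 13.9, 11.1 and 13.1 FPKM in WT. All cKO values lay between the lowest and highest WT values. Its log2 fold change was −0.02 (95% interval −0.28 to 0.23, SE 0.11, limma adjusted p = 0.986), and its direction turned with the setting.

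**Figure D2:**
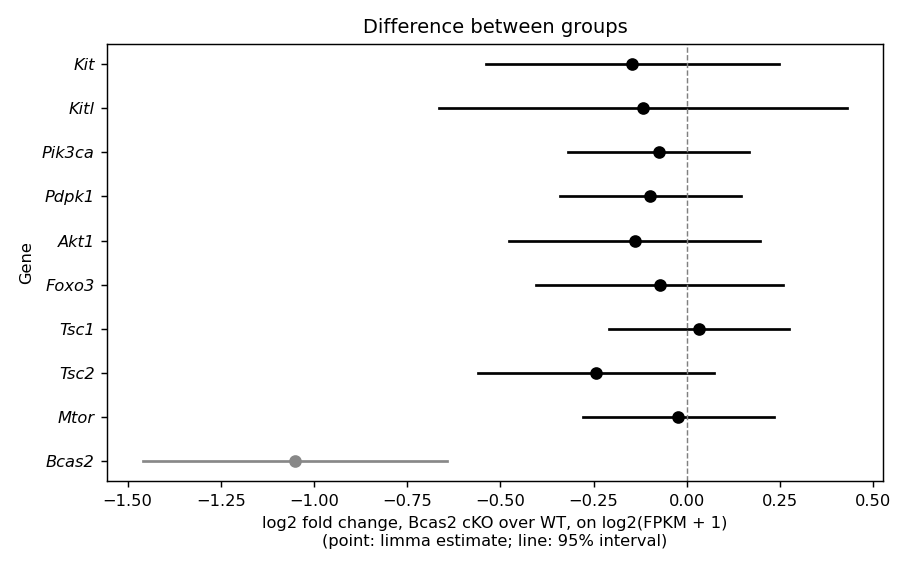
Log2 fold change of each gene, Bcas2 cKO over WT, on the log2(FPKM + 1) scale, with limma's 95% interval and Bcas2 in grey. The interval of each of the 9 genes includes 0, and that of Bcas2 does not.

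As a group the 9 genes had a median log2 fold change of −0.10, and 8 of the 9 had a lower mean in cKO, where 51.3% of all tested genes did and the median of all was −0.0058. Without WT replicate 1 the count was 5 of 9 and the median −0.0083. That library was the highest of the 6 for 5 genes (Kitl, Foxo3, Akt1, Tsc2 and Mtor) and the lowest for 1 (Tsc1), while no cKO library was the highest for any. The intervals bound the differences these samples could hold: over the 9 genes the lowest bound was a ratio of 0.631 and the highest a ratio of 1.35, both for Kitl, cKO over WT on the FPKM + 1 scale. A p that misses the threshold does not show equal levels. The intervals are unadjusted and differ by gene, with that of Pdpk1 at a ratio of 0.790 to 1.11. They do not mark what the adjusted test could detect, as Bcas2, at a log2 fold change of −1.05, had a limma adjusted p of 0.955.

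**Figure D3:**
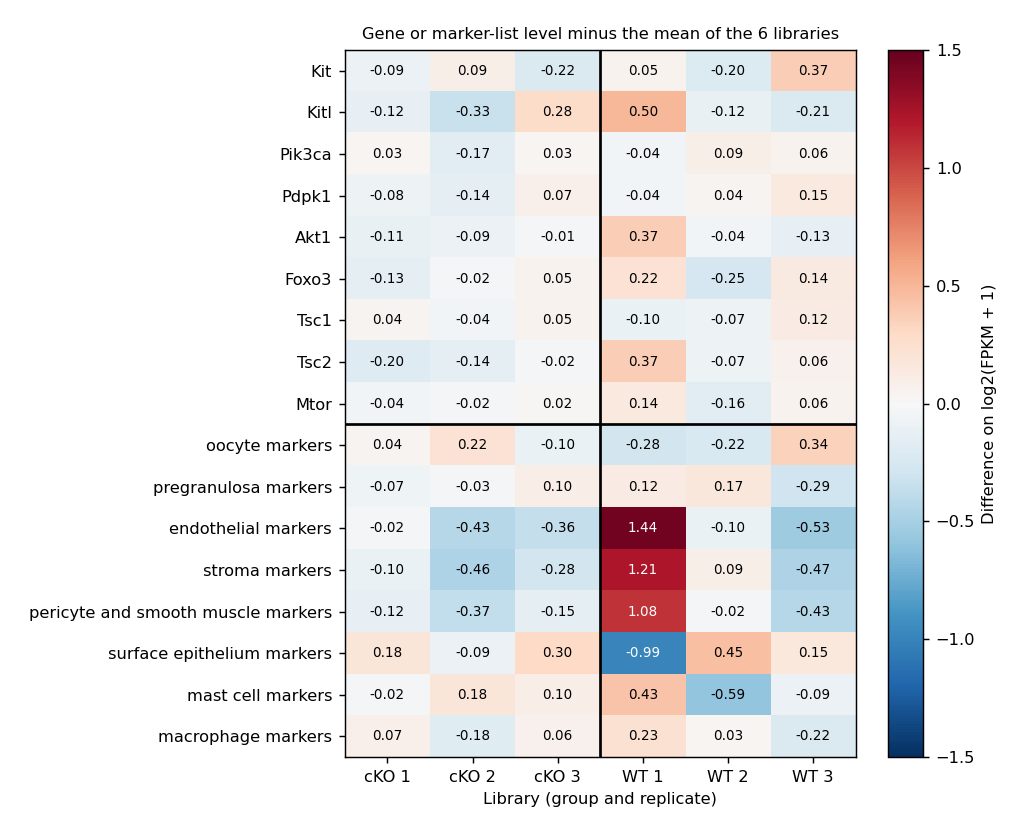
Level of each gene, and mean level of each marker list, minus its own mean over the 6 libraries on log2(FPKM + 1), with cKO libraries left of the WT libraries. WT replicate 1 reads 1.44 for endothelial and 1.21 for stroma markers, and 0.50 for Kitl and 0.37 for Akt1 and Tsc2, while Kit and the oocyte markers both read highest in WT replicate 3.

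Because the level of the oocyte markers differed between libraries, Kit and Foxo3 were also read relative to the mean log2(FPKM + 1) of the 10 oocyte markers, and Kitl relative to that of the 10 pregranulosa markers. Kit lay 0.90, 0.91 and 0.92 above the oocyte markers in cKO, against 1.36, 1.06 and 1.07 in WT. All cKO libraries were below all WT libraries, and the cKO values were nearly identical. The mean was 0.91 ± 0.0103 in cKO and 1.16 ± 0.17 in WT (SD, n = 3 each), a difference of −0.25, with an exact two-sided permutation p of 0.1, the smallest possible, or 0.3 after Benjamini-Hochberg adjustment over the 3 comparisons of this kind. Among all tested genes read in the same way, 0.98% were lower in cKO without overlap and 1.99% were non-overlapping in either direction. Those genes are not limited to oocyte genes, and without the subtraction 7.88% of them were non-overlapping. The share among oocyte genes alone is not given, so these shares do not say how rare the separation of Kit is. Without WT replicate 1 the difference for Kit was −0.15, over 1.5 times smaller.

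The size of this difference varied with the oocyte genes used. Against the 5 oocyte transcription factors Sohlh1, Sohlh2, Lhx8, Nobox and Figla, a comparison added after seeing the data, Kit lay 1.10, 0.96 and 1.05 above them in cKO and 1.43, 1.21 and 1.20 above them in WT, again with no overlap and an exact permutation p of 0.1. Against each of the 10 markers alone, Kit was relatively lower in cKO for 9, the 10 differences ran from −0.55 to 0.03, and the groups did not overlap for 4. These readings and the one against the transcription factors reuse the same Kit values, so they are not separate evidence. The share of all genes without overlap is not given for them. The markers themselves averaged 6.23 ± 0.16 in cKO and 6.13 ± 0.34 in WT on log2(FPKM + 1), so the relative difference joins a lower Kit mean with a higher marker mean, neither of which was separated between the groups. Kit is also a gene of mast cells and melanocytes. Mast cell markers (6 of 8 tested, none at 0 in every library) summed to 108.4 to 139.6 FPKM in cKO and 60.1 to 188.1 FPKM in WT, with WT replicate 1 the highest and WT replicate 2 the lowest, and their part in the Kit level was not tested. Melanocyte markers (0 of 6 tested) summed to 0.77 to 1.15 FPKM in cKO and 1.03 to 1.38 FPKM in WT.

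**Figure D4:**
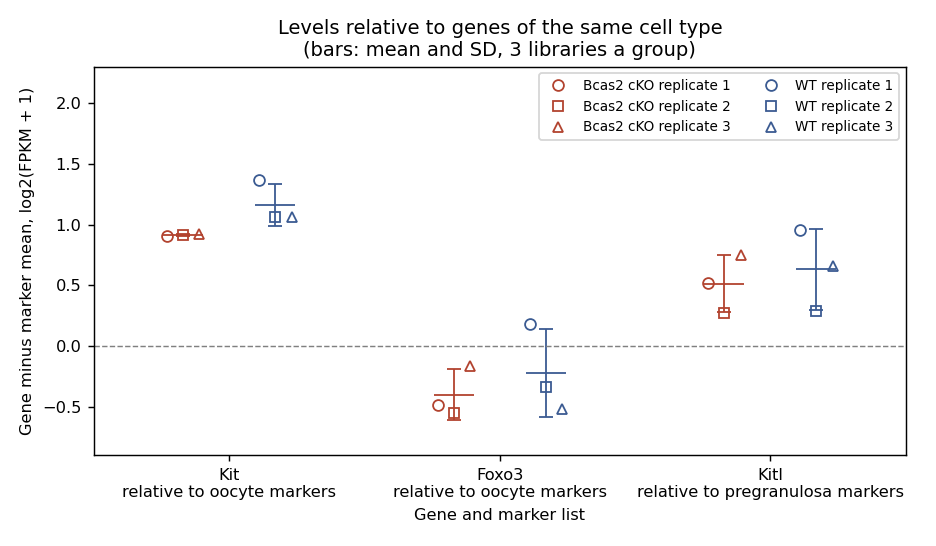
Log2(FPKM + 1) of Kit and Foxo3 minus the mean of 10 oocyte markers, and of Kitl minus the mean of 10 pregranulosa markers, per library, with mean and SD for Bcas2 cKO (left) and WT (right). Kit is at 0.90 to 0.92 in cKO and 1.06 to 1.36 in WT, and the groups of the other 2 genes overlap.

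Foxo3 and Kitl did not separate when read in this way. Foxo3, which somatic cells also express, lay at −0.49, −0.55 and −0.16 relative to the oocyte markers in cKO, against 0.18, −0.34 and −0.52 in WT, a difference of −0.18 (exact permutation p = 0.6, adjusted 0.7). Kitl lay at 0.52, 0.27 and 0.75 relative to the pregranulosa markers in cKO, against 0.95, 0.29 and 0.66 in WT, a difference of −0.12 (exact permutation p = 0.7, adjusted 0.7). Among all tested genes read against the pregranulosa markers, 2.15% were lower in cKO without overlap and 3.13% were non-overlapping in either direction. The groups overlapped for both genes, and both differences changed sign without WT replicate 1.

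Among the 12393 other tested protein-coding genes, the profiles over the 6 libraries most like that of Kit belonged to Wdr93, Mllt3 and Tdrd9, at root-mean-square differences of 0.047, 0.048 and 0.068 on the centred log2 scale, against a spread of 0.202 for Kit itself. Tdrd9, a germ cell RNA helicase of the piRNA pathway, was at 60.6, 66.6 and 54.7 FPKM in cKO and 58.4, 51.9 and 83.0 FPKM in WT, with WT replicate 3 the highest, as for Kit. For Kitl they were Nicn1, C1ra and Icosl (0.029, 0.072 and 0.072, against a spread of 0.292), each highest in WT replicate 1. For Foxo3 they were Pacs1, Fam193a and Mybpc3 (0.029, 0.030 and 0.032, against 0.157). With 6 libraries and this many genes searched, close matches can arise by chance, so the likeness is a description.

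Related genes of the same families were compared per length. Akt2, the AKT kinase gene best known in insulin signalling, was at 33.4 ± 2.92 FPKM in cKO and 33.3 ± 0.81 FPKM in WT (SD, n = 3 each), below Akt1 in all 6 libraries. Foxo3 made up 59.9% ± 0.51 of the summed FOXO FPKM in cKO and 60.0% ± 6.33 in WT (SD, n = 3 each, exact permutation p = 1.0), with Foxo6 at 15.9 ± 1.97 FPKM in cKO and 15.2 ± 5.39 FPKM in WT, and Foxo4 at 9.85 ± 0.87 FPKM and 9.56 ± 0.31 FPKM. Foxo1, a FOXO gene of granulosa cells, was at 11.4, 11.0 and 12.8 FPKM in cKO, against 17.1, 12.5 and 13.6 FPKM in WT (limma adjusted p = 0.955). Its share of the FOXO sum was 12.6% ± 0.81 in cKO and 14.6% ± 1.67 in WT (SD, n = 3 each, exact permutation p = 0.1, the smallest possible). This p is not adjusted for the shares of the other genes of these families, which were tested in the same way. Pik3ca made up 52.3% ± 2.14 of the class I catalytic PI3K FPKM in cKO and 50.5% ± 4.34 in WT (exact permutation p = 0.6), ahead of Pik3cb at 4.15 to 6.18 FPKM. These shares are of transcripts from all cells of the ovary.

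Of the other genes of the pathway, 92 were tested in 11 lists, and 0 rose, 0 fell and 92 did not pass (limma adjusted p 0.955 to 0.998). Their median log2 fold change was −0.06, 2 had an unadjusted p under 0.05, and the groups did not overlap for 7, or 7.61%, close to the 7.88% of all genes. No list therefore held a called member, and the values below describe where each stood.

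Upstream, 12 of 14 KIT adaptors and negative regulators had a lower mean in cKO, with a median of −0.13 (−0.07 without WT replicate 1, with 10 lower). Ptpn11, the phosphatase SHP2 that carries KIT signals to RAS, was at 33.0 ± 3.35 FPKM in cKO and 37.0 ± 1.63 FPKM in WT, and the adaptor Grb2 at 30.0 ± 3.33 FPKM and 31.3 ± 3.53 FPKM (SD, n = 3 each). Fyn, a SRC family kinase, was at 10.3, 10.9 and 11.1 FPKM in cKO, against 13.7, 11.8 and 11.6 FPKM in WT, without overlap. Of the 5 oocyte transcription factors, among them Sohlh1 and Lhx8, which are needed for Kit expression in mouse oocytes, 5 had a higher mean in cKO, with a median of 0.10 (−0.02 without cKO replicate 2, with 2 higher). Sohlh1 was at 115.8 ± 31.1 FPKM in cKO and 112.2 ± 27.3 FPKM in WT, and Figla at 114.5 ± 29.8 FPKM and 102.4 ± 26.1 FPKM. Lhx8 was at 65.1, 83.1 and 54.4 FPKM in cKO, against 55.4, 49.1 and 76.6 FPKM in WT, so its groups overlapped widely.

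Other receptor tyrosine kinases that feed PI3K had the lowest median of the 11 lists, −0.30 with 9 of 10 lower in cKO, and −0.04 with 7 of 10 lower without WT replicate 1. One of them, Pdgfra, is also among the stroma markers, whose median was −0.47 (0.01 without that library), and the part of stroma in this list was not tested. Igf1r, the receptor of insulin-like growth factors, was at 9.77, 8.31 and 10.7 FPKM in cKO, against 16.3, 11.8 and 12.4 FPKM in WT. It had no overlap, a log2 fold change of −0.45, an unadjusted limma p of 0.0212 and an adjusted p of 0.955. The receptors Fgfr1 and Fgfr2 were at 20.6 ± 0.62 and 19.7 ± 2.41 FPKM in cKO and at 23.0 ± 3.83 and 20.7 ± 3.56 FPKM in WT.

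At the level of PI3K, 4 of 5 tested subunits had a lower mean in cKO (median −0.13, and −0.04 without WT replicate 1 or without cKO replicate 2). Pik3r1, a regulatory subunit, was at 10.8, 11.0 and 11.8 FPKM in cKO, against 22.1, 11.7 and 9.71 FPKM in WT, high in WT replicate 1 alone. The subunit genes Pik3r2 and Pik3r3 were at 40.4 ± 0.70 and 23.2 ± 1.62 FPKM in cKO and at 41.7 ± 3.81 and 21.4 ± 3.20 FPKM in WT. Among the phosphatases that oppose the pathway, 4 of 7 were lower (median −0.04). The phosphatase genes Inppl1 and Phlpp1 were at 33.8 ± 1.73 and 13.5 ± 0.63 FPKM in cKO and at 34.6 ± 0.68 and 15.2 ± 1.32 FPKM in WT. Inpp5d, the phosphatase SHIP1 of blood cells, was at 2.40 ± 0.35 FPKM in cKO and 3.70 ± 1.08 FPKM in WT.

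Of 7 AKT paralogs and other AKT targets, 4 were lower in cKO (median −0.08, and −0.0013 without WT replicate 1). Cdkn1b, the cell cycle inhibitor p27 that also restrains follicle activation, was at 92.8, 89.6 and 115.9 FPKM in cKO, against 108.6, 124.5 and 96.5 FPKM in WT, with overlapping groups. Bad, a cell death protein that AKT phosphorylates, was at 15.9 ± 1.68 FPKM in cKO and 13.5 ± 1.45 FPKM in WT. Of 13 tested genes known as FOXO targets, 7 were lower and 6 higher (median −0.02). The split rested on single libraries, with 11 of 13 lower without cKO replicate 2 (median −0.05) and 5 of 13 without cKO replicate 1 (median 0.02). Pink1, a mitochondrial kinase gene, was at 42.8 ± 4.94 FPKM in cKO and 43.2 ± 3.36 FPKM in WT. Txnip, a thioredoxin inhibitor, was at 168.6 ± 14.6 FPKM in cKO and 168.0 ± 18.4 FPKM in WT, and Irs2, an insulin receptor substrate, at 4.05 ± 0.58 FPKM and 5.55 ± 1.28 FPKM (SD, n = 3 each).

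In the mTOR branch, 7 of 11 complex members and RHEB genes were lower in cKO (median −0.06, and −0.02 without WT replicate 3 or without cKO replicate 2). Rheb, the GTPase that TSC2 acts on, was at 47.3, 56.3 and 50.01 FPKM in cKO, against 43.8, 48.0 and 46.8 FPKM in WT, and Rptor, the scaffold of mTOR complex 1, at 11.6 ± 1.04 FPKM in cKO and 13.3 ± 1.38 FPKM in WT. Lamtor1, which anchors mTOR complex 1 at the lysosome, was at 72.6 ± 6.73 FPKM in cKO and 67.5 ± 3.41 FPKM in WT. Of 7 LKB1 and AMPK genes 3 were lower (median 0.01). Without cKO replicate 2 the median turned to −0.04 with 5 of 7 lower, and without WT replicate 2 to −0.06 with 4 of 7 lower. Strada, the pseudokinase that activates LKB1, was at 17.04, 19.3 and 15.2 FPKM in cKO, against 14.2, 13.6 and 14.4 FPKM in WT, without overlap, with an unadjusted limma p of 0.0455 and an adjusted p of 0.955. Cab39 and Prkag1, which encode an LKB1 partner and an AMPK subunit, were at 35.7 ± 2.22 and 33.2 ± 1.62 FPKM in cKO and at 37.7 ± 2.15 and 33.0 ± 2.997 FPKM in WT. Of 10 S6 kinase and translation effectors 4 were lower and 6 higher (median 0.07). Without WT replicate 1 the median turned to −0.04 with 5 of 10 lower, and with TPM to −0.0012. Rps6, the ribosomal protein that S6 kinase phosphorylates, was at 537.7, 577.9 and 524.6 FPKM in cKO, against 443.6, 476.8 and 520.8 FPKM in WT, without overlap (limma adjusted p = 0.955), and the kinase gene Rps6kb1 at 7.08 ± 0.56 FPKM in cKO and 6.73 ± 0.19 FPKM in WT. The translation factor genes Eif4b and Eif4ebp2 were at 128.3 ± 16.1 and 23.3 ± 5.81 FPKM in cKO and at 140.4 ± 13.1 and 29.2 ± 5.34 FPKM in WT.

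**Figure D5:**
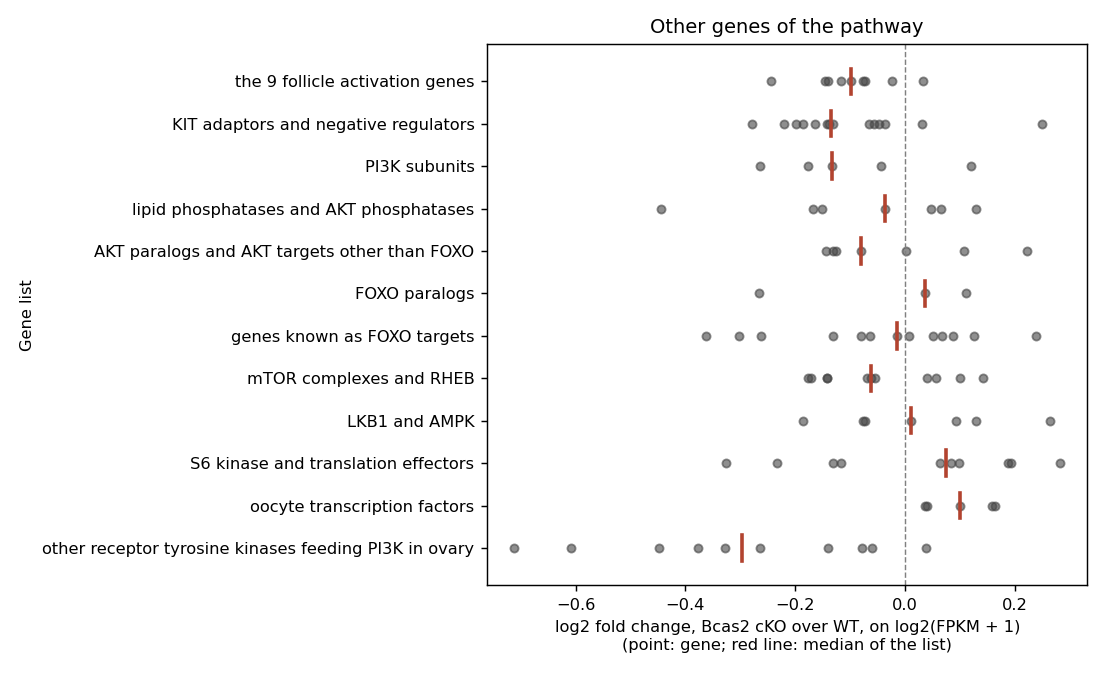
Log2 fold change, Bcas2 cKO over WT, of each tested gene in the pathway lists (points), with the median of each list as a red line. List medians run from −0.30 for other receptor tyrosine kinases to 0.10 for oocyte transcription factors, and no gene passed the adjusted threshold.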

How the data were processed

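RNA sequencing libraries of 3 Bcas2 cKO and 3 WT ovaries were compared, with groups and replicate numbers from the sample titles. The authors deposited FPKM values, and the submitters' processing notes name HISAT2 2.0.5 and list mm10 and GRCm39 as builds. Gene coordinates are GRCm39 per the file headers' sequence accessions. The counting tool, strand setting and annotation release are not given in the labels. FPKM times the deposited gene length (another column of the table), divided by a step per library, gave whole reads within 0.05 for 100% of values under 5000 reads. The library size implied by this step was 0.962 times the recovered reads in WT replicate 1 and 1.03 times in cKO replicate 1. The deposited values were therefore not scaled to the recovered read total alone. Replicate pairs differed beyond sampling noise (chi-square per degree of freedom 13.3 to 66.6). Python 3.11.15, R 4.3.3 and limma 3.58.1 (lmFit and eBayes with trend, two-sided) were used on log2(FPKM + 1), a scale that understates changes of low genes. The limma fit was also run on simulated counts with a single dispersion for all genes and no outlying library. That run does not measure how the fit performs on these data. Promoter windows came from RefSeq (GRCm38.p6), which matched all 9 genes. The 9 genes, lists and tests were chosen with earlier results of these data known. Named genes are the 9, Bcas2, known partners, the 2 highest genes and the one with the smallest p in each list, the highest marker of each marker list, and the 3 nearest profiles of Kit, Kitl and Foxo3. Some of these genes are not reported here. Alternatives were a pseudocount of 0.1, no filter, TPM, median-of-ratios scaling, a replicate block, limma-voom and leaving out each library.

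The highest markers of the lists were Dppa3, Amhr2, Cdh5, Col1a2, Acta2, Krt19, Tpsb2, Pmel, Hba-a1 and C1qb. Markers not described with the genes were measured the same way. Pericyte and smooth muscle markers (5 of 6 tested) summed to 15.8 to 18.6 FPKM in cKO. In WT they summed to 56.7 FPKM in replicate 1, and to 17.3 and 12.8 FPKM in replicates 2 and 3. Surface epithelium markers (6 of 6) summed to 307 to 365 FPKM in cKO. In WT they summed to 132.3 FPKM in replicate 1, and to 401 and 310.5 FPKM in replicates 2 and 3. Macrophage markers (5 of 6) summed to 16.8 to 21.9 FPKM in cKO and 16.6 to 23.9 FPKM in WT.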

Additional observations from a re-analysis of the deposited data

How the results depend on the processing

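No member was called under any of the 12 alternatives. Of their 108 log2 fold changes, 99 kept the direction reported, counting the replicate block and no filter, which cannot change a fold change. The other 9 were Kit 0.0028 without WT replicate 3; Kitl 0.0185 without cKO replicate 2; Kitl 0.106, Foxo3 0.0178, Akt1 0.0112, Tsc1 −0.0083 and Mtor 0.0417 without WT replicate 1; Tsc1 −0.0434 after rescaling to TPM; and Mtor 0.0091 with limma-voom, where the cause was not tested. Leaving out a library gave Kit from −0.28 to 0.0028, Kitl from −0.29 to 0.106, Foxo3 from −0.21 to 0.0178, Akt1 from −0.24 to 0.0112, Tsc1 from −0.0083 to 0.10, Mtor from −0.11 to 0.0417, Pdpk1 from −0.16 to −0.05, Pik3ca from −0.11 to −0.0094 and Tsc2 from −0.34 to −0.12. It gave Foxo3 relative to oocyte markers from −0.32 to 0.027 and Kitl relative to pregranulosa markers from −0.29 to 0.041, with Kitl at 0.0012 without cKO replicate 2. Kit relative to oocyte markers ran from −0.30 to −0.15 in this way, and 2 against 3 cannot give an exact p below 0.2. The number of genes called over the whole table ran from 0 to 1 when a library was left out (Pcna-ps2, without cKO replicate 2, named after its values were seen). Genes with an unadjusted p under 0.05 numbered 443 with all libraries, 293, 253 and 702 without cKO replicates 1, 2 and 3, and 527, 482 and 1056 without WT replicates 1, 2 and 3. Bcas2 ran from −1.16 to −0.86. TPM moved the median of all genes to −0.08, the share lower in cKO to 67.4% and the members lower in cKO to 9 of 9. Limma-voom moved the median of all genes to 0.03, the share lower in cKO to 43.5% and the members lower in cKO to 7 of 9. Median-of-ratios factors were 0.987 to 1.006, so that scaling could move a fold change only slightly. The labels do not say that shared replicate numbers pair the libraries, so the numbers were not taken to pair them. Deviations from the group means correlated at 0.22, 0.014 and −0.028 for same-numbered libraries. For the other combinations they ran from −0.34 to 0.32, so the correlations cannot decide whether the libraries are paired. With the replicate block 0 genes were called and 432 had an unadjusted p under 0.05. In this balanced design the block leaves every fold change as it was, so it cannot test their direction. Kit relative to oocyte markers was at −0.25 (exact sign-flip p = 0.25, the smallest possible). With 3 samples a group, the spread between samples sets the intervals given.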
